A study of Mus musculus with 12 samples.

Results

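B and plasma cell genes are a set of 9 genes that mark the B lineage: Cd79a, Cd79b, Ms4a1, Cr2, Pax5, Pou2af1, Jchain, Mzb1 and Tnfrsf17. They were chosen by name, as known markers of B cells and of antibody-secreting plasma cells, out of 24391 gene symbols in the deposited tables. All 9 symbols were listed with a value in every library, and all 9 were above 0 in at least 1 of the 12 libraries. Messenger RNA was sequenced from epithelial cells scraped off the colon of C57BL/6 mice aged 18 weeks, in 3 groups of 4 libraries. The curcumin group had azoxymethane (AOM, a carcinogen), dextran sulfate sodium (DSS, which inflames the colon) and curcumin, a polyphenol of turmeric. The AOM/DSS group had both agents without curcumin, and the control group is labelled control with no agent named. The labels used here give no dose, no day of treatment and no sex, and they do not say that each library is a separate animal, so p-values measure the spread between these samples. The labels' protocols state that tumours of the right colon and the proximal segment had been cut away first, and that the scraped cells were washed against blood carry-over.

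B cells carry an antigen receptor whose signal is passed into the cell by the paired chains Cd79a and Cd79b. When a B cell becomes a plasma cell it switches off Pax5, the factor that holds B cell identity, and turns to making and secreting antibody. The colon wall holds both kinds of cell: B cells gather in lymphoid follicles, and plasma cells lie between the crypts, where they secrete dimeric IgA that the epithelial receptor Pigr carries into the gut lumen. Scraped epithelium can take up parts of both. In RNA from whole scrapings, fewer cells of a type and less RNA per cell cannot be told apart.

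Levels are given in FPKM (fragments scaled to gene length and to the depth of the library), so that genes of unequal length can be compared, and libraries are named by group and by their replicate number, 0 to 3. Read totals recovered from the deposited values ran between 5567988 and 15968416 per library. The 11 colon epithelium markers summed to between 7998.2 and 13542.1 FPKM per library, and all 11 passed the filter on low values, whereas the highest value of any of the 9 genes in any library was 53.0 FPKM. By base composition the libraries fell into 5 that favoured GC-rich genes (curcumin 0 and 1, AOM/DSS 0 and 1, and control 0) and 7 that favoured AT-rich genes, and both kinds occurred in every group.

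The promoters of 3 members are shown because they stand for the patterns described next: Cd79a and Pou2af1 were high in the same libraries, and Jchain was high in others. RefSeq promoters were matched for 6 of the 9 members, on build GRCm38.p6, each with 250 bases before and 50 after the gene start. Capitals mark a match to the Ets core AGGAAGT, a short motif bound by Ets family factors. The Cd79a window is chr7:24897247-24897546 on the plus strand, the Pou2af1 window is chr9:51213440-51213739 on the plus strand, and the Jchain window is chr5:88527848-88528147 on the minus strand.
Cd79a: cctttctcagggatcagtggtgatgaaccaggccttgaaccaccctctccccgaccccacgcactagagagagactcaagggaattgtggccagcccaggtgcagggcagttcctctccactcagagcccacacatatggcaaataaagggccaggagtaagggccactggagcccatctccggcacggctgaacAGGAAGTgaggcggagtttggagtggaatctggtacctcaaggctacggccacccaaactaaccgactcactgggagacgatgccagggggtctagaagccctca
Pou2af1: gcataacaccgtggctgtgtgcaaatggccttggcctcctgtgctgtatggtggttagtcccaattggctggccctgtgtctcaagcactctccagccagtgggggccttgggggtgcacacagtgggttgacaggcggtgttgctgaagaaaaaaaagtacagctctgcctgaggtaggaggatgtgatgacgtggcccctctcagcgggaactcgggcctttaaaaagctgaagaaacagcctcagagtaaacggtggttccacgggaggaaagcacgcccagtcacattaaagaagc
Jchain: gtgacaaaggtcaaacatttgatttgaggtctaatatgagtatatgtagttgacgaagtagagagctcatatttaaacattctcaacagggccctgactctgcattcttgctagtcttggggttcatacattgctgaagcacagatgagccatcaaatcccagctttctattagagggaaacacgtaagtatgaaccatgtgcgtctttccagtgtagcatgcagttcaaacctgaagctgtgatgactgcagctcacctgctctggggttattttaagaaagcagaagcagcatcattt
In all, 3 motifs were searched on both strands of the 300-base windows. The Ets core AGGAAGT was found in 1 of the 6 member promoters, that of Cd79a, and in 9.35% of 32851 promoters. The octamer ATTTGCAT, the site of the factors that Pou2af1 assists, was in 0 of 6 member promoters and in 1.74% of all. The core CCCNNGGGA of the early B cell factor EBF was in 0 of 6 and in 6.56% of all. No motif searched overlapped another in these windows, and a match is a description of the letters only. Only exact letters were counted, so a count of 0 does not show that a promoter lacks a site for the factor. The Cd79a window holds ctcaaggga, which differs from the core CCCNNGGGA only in its second letter. The Pou2af1 window holds gtgcaaat, which differs from the octamer on the other strand only in its first letter.

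Cd79a and Cd79b are the signal chains of the B cell antigen receptor. Cd79a was at 4.27, 3.01, 2.1 and 0.908 FPKM in curcumin libraries 0 to 3, at 2.53, 16.7, 31.0 and 0.858 FPKM in AOM/DSS libraries 0 to 3, and at 4.69, 6.97, 5.84 and 3.4 FPKM in control libraries 0 to 3. Cd79b was at 5.89, 5.64, 3.88 and 1.06 FPKM in curcumin, at 3.15, 14.7, 40.8 and 0.447 FPKM in AOM/DSS, and at 4.79, 11.3, 7.06 and 3.29 FPKM in control. For both genes AOM/DSS 2 was the highest of the 12 libraries, AOM/DSS 1 the second highest and AOM/DSS 3 the lowest, so the AOM/DSS group spanned the whole range of the other groups. Behind these values stood 472 reads of Cd79a in AOM/DSS 2 and 17 reads in AOM/DSS 3. The ratio of Cd79b to Cd79a in FPKM stayed between 0.521 and 1.87 over the 12 libraries, while the level of Cd79a itself differed 36.1-fold between the highest and the lowest AOM/DSS library.

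Ms4a1 and Cr2 are surface proteins of mature B cells. Ms4a1, the target of anti-B cell antibodies, was at 1.61, 0.896, 1.21 and 0.615 FPKM in curcumin, at 0.297, 2.86, 11.8 and 0.293 FPKM in AOM/DSS, and at 1.28, 2.01, 2.06 and 1.21 FPKM in control. Cr2, a complement receptor that also marks follicular dendritic cells, was at 0.241, 0.0825, 0.160 and 0.0485 FPKM in curcumin, at 0.0657, 1.10, 2.01 and 0.0108 FPKM in AOM/DSS, and at 0.344, 0.634, 0.451 and 0.285 FPKM in control. Both repeated the order seen for the receptor chains, with AOM/DSS 2 highest, AOM/DSS 1 second and AOM/DSS 3 lowest of all 12. All 4 curcumin libraries lay below all 4 control libraries for Cr2, which was the only member of 9 whose curcumin and control values did not overlap. Over all 19233 genes above 0 in any library, 6.75% had no overlap between curcumin and control, in either direction. The same count was 0 of 9 members for AOM/DSS against control, where 4.98% of genes had no overlap, and 0 of 9 for curcumin against AOM/DSS, where 7.88% had none.

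Pax5 and Pou2af1 act in transcription. Pax5, the factor of B cell identity, was at 0.796, 1.02, 1.39 and 0.15 FPKM in curcumin, at 0.928, 3.53, 15.8 and 0.222 FPKM in AOM/DSS, and at 0.563, 1.30, 1.66 and 0.999 FPKM in control. Pou2af1, a coactivator of octamer-binding factors used by B cells and plasma cells, was at 0.708, 0.878, 0.483 and 0.446 FPKM in curcumin, at 0.357, 2.11, 5.88 and 0.391 FPKM in AOM/DSS, and at 0.947, 2.30, 1.17 and 0.784 FPKM in control. AOM/DSS 2 was again the highest library for both, and AOM/DSS 0 and 3 lay under every control library for Pou2af1. In AOM/DSS 2, 219 reads fell on Pax5, against 3 to 37 in each of the other 11 libraries.

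Jchain, Mzb1 and Tnfrsf17 belong to antibody secretion. Jchain, the small protein that joins IgA and IgM into polymers, was at 8.44, 0.195, 1.5 and 0.344 FPKM in curcumin, at 8.05, 2.25, 7.17 and 53.0 FPKM in AOM/DSS, and at 7.81, 3.28, 17.5 and 0.383 FPKM in control. Its highest library was AOM/DSS 3, the one in which Cd79a, Cd79b, Ms4a1 and Cr2 were at their lowest. Mzb1, a chaperone of the endoplasmic reticulum that helps to assemble antibody, was at 2.12, 0.791, 0.205 and 0.0665 FPKM in curcumin, at 0.787, 2.29, 4.33 and 2.59 FPKM in AOM/DSS, and at 1.07, 1.09, 1.66 and 0.444 FPKM in control. The groups overlapped for both genes in every comparison. The Mzb1 values rested on 1 to 45 reads per library, and 57.2% of the exon bases of Mzb1 are shared with another gene in a later annotation, so its level is uncertain. Tnfrsf17, a plasma cell receptor for survival signals, had 6 reads in the 12 libraries, of which 0 fell in the curcumin group, 2 in the AOM/DSS group and 4 in the control group, and no fold change is given for it.

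**Figure D1:**
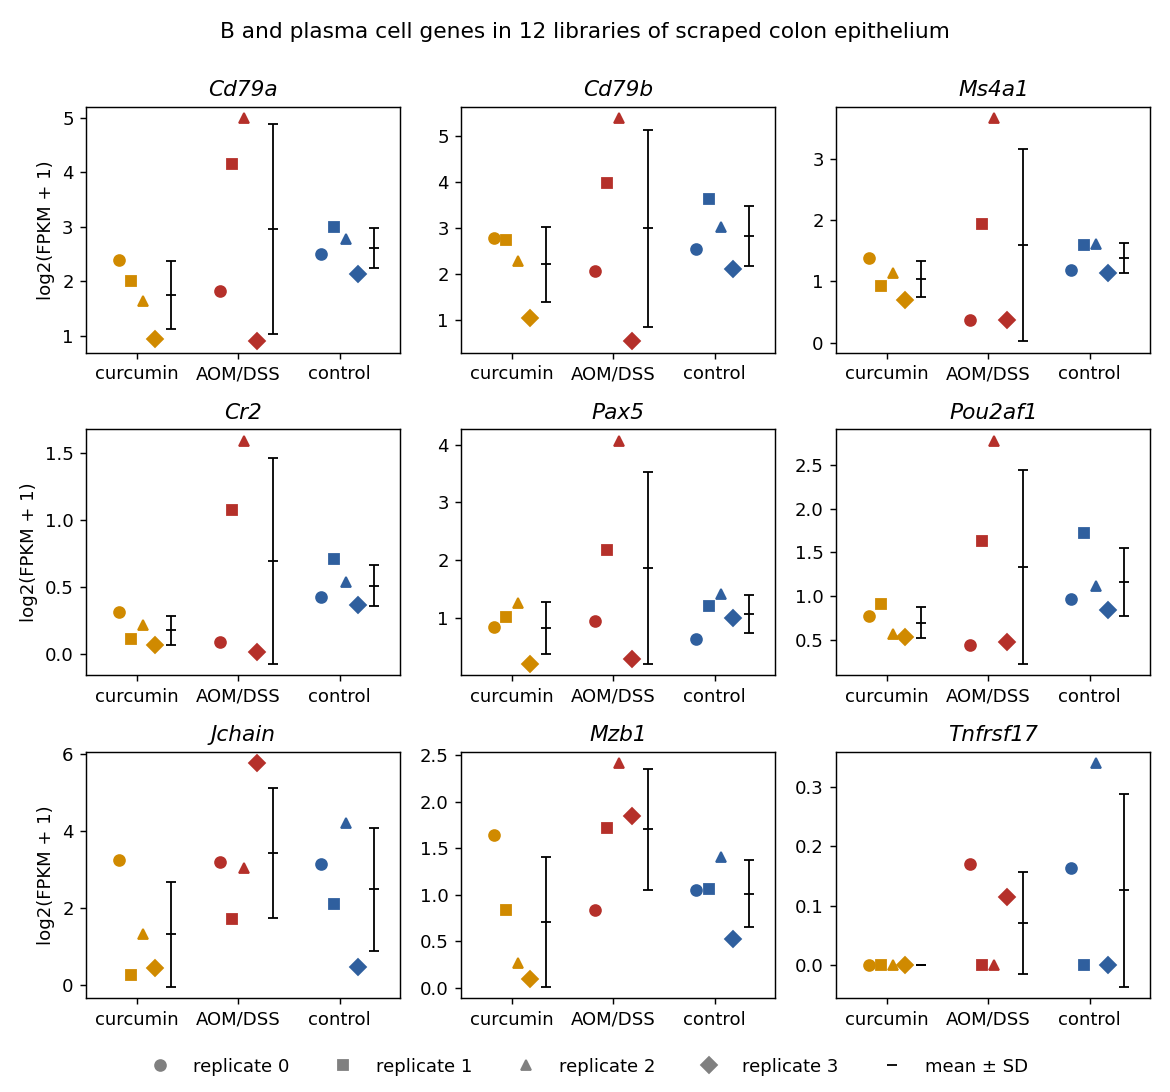
Levels of the 9 genes as log2(FPKM + 1) in each library, by group; marker shapes give the replicate number and black bars the mean ± SD of 4 libraries, and the vertical scale differs between panels. AOM/DSS 2 (red triangle) is the highest library for 7 of the 9 genes, and AOM/DSS 3 (red diamond) is the highest for Jchain.

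The first comparison, AOM/DSS against control, addresses the effect of carcinogen and colitis. Mean levels of the 7 tested members were all higher in AOM/DSS than in control, but for Cd79a, Cd79b, Ms4a1, Pax5 and Pou2af1 the AOM/DSS libraries lay on both sides of the control range, and 0 of 7 members passed limma's test (adjusted p below 0.05 over 12052 genes). Over all tested genes 1.27% passed, 55 higher and 98 lower in AOM/DSS, and 52.8% had a positive difference whether or not they passed. At an unadjusted p below 0.05 the count was again 0 of 7 members, against 13.5% of all tested genes. Cd79a averaged 12.8 ± 14.1 FPKM in AOM/DSS and 5.22 ± 1.54 FPKM in control (SD, n = 4 each), a difference of 0.36 ± 0.71 (SE) on the log2(FPKM + 1) scale with a limma adjusted p of 0.864. That scale is used for all differences here and understates the change of low genes. For Pax5 the difference was 0.81 ± 0.61 (SE; limma adjusted p = 0.61), and for Jchain it was 0.94 ± 0.92 (SE; limma adjusted p = 0.711). Mzb1 had the lowest limma adjusted p of the 7, 0.445, at a difference of 0.69, with 3 of 4 AOM/DSS libraries above all 4 control libraries.

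The median difference of the 7 members, AOM/DSS minus control, was 0.36, beside 0.015 for all tested genes. It was -0.31 without AOM/DSS 2 and 0.09 without AOM/DSS 1. Without AOM/DSS 2 the differences of Cd79a, Cd79b, Ms4a1 and Pou2af1 were -0.32, -0.63, -0.49 and -0.31, so the sign of these 4 differences turned round without that library. Without AOM/DSS 1 the differences of Cd79a and Cd79b were -0.03 and -0.16, and without control 3 that of Cd79b was -0.07. Those of Pax5, Jchain and Mzb1 were positive with any 1 library left out, at lowest 0.07, 0.16 and 0.45. Among the 5 GC-rich libraries alone, with 1 control, the differences were 0.47 for Cd79a and -0.70 for Jchain, and among the 7 AT-rich libraries they were 0.31 and 2.14.

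Curcumin against AOM/DSS, which uses the same AOM/DSS libraries, asks what curcumin changes in the model. The mean of each of the 7 tested members was lower in curcumin, and the differences with the lowest p were those of Jchain and Mzb1, yet 0 of 7 passed limma's test, where 1.08% of all tested genes passed, 88 higher and 42 lower in curcumin. Jchain averaged 2.62 ± 3.92 FPKM in curcumin and 17.6 ± 23.7 FPKM in AOM/DSS (SD, n = 4 each), with 3 of 4 curcumin libraries below all 4 AOM/DSS libraries and curcumin 0 above 3 of the 4. Its difference was -2.1 on the log2 scale, with a 95% interval of -4.10 to -0.11 before adjustment and a limma adjusted p of 0.315. Mzb1 averaged 0.796 ± 0.938 FPKM in curcumin and 2.50 ± 1.45 FPKM in AOM/DSS, a difference of -0.99 with a 95% interval of -1.78 to -0.20 and a limma adjusted p of 0.226. These 2 of 7 had an unadjusted p below 0.05, as did 14.5% of all tested genes. The difference was negative for 50.9% of all tested genes. Without AOM/DSS 3 the difference of Jchain was -1.32. Among the GC-rich libraries alone it was -0.69 for Jchain and -0.04 for Mzb1, and among the AT-rich libraries -3.52 and -1.95.

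For the B cell members the 95% intervals of curcumin minus AOM/DSS all included 0. The differences were -1.22 for Cd79a, -0.78 for Cd79b, -0.56 for Ms4a1, -1.04 for Pax5 and -0.64 for Pou2af1, with limma adjusted p between 0.463 and 0.732. No curcumin library lay above the highest AOM/DSS library for any of the 5, and for Cd79a, Cd79b, Ms4a1 and Pou2af1 none lay below the lowest. The median over the 7 members was -0.99, beside -0.005 for all tested genes, and -0.31 without AOM/DSS 2. Without AOM/DSS 2, Cd79b was at 0.02 and Ms4a1 at 0.14, with the sign turned round.

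Curcumin against control gave 0 of 7 members past limma's test, and 0.141% of all tested genes passed, 11 higher and 6 lower in curcumin. At an unadjusted p below 0.05 the count was 0 of 7, against 12.2% of tested genes. Cd79a averaged 2.57 ± 1.42 FPKM in curcumin and 5.22 ± 1.54 FPKM in control (SD, n = 4 each), with 3 of 4 curcumin libraries below all 4 control libraries, a difference of -0.86 and a limma adjusted p of 0.654. All 7 member differences were negative, as were those of 47.5% of all tested genes. The 7 lay between -0.24 for Pax5 and -1.17 for Jchain, with limma adjusted p between 0.642 and 0.906. Their median was -0.46, beside 0.014 for all tested genes. It was -0.03 among the GC-rich libraries alone, where Cd79b, Pax5 and Mzb1 were at 0.22, 0.28 and 0.19, and -0.82 among the AT-rich libraries. It was -0.23 without curcumin 3 and -0.29 without control 1. Cr2, which was under the filter on low values, differed by -0.33 in a fit with no filter (limma adjusted p = 0.75). In that fit 0 of 9 members passed in any of the 3 comparisons, and the lowest limma adjusted p of a member was 0.299.

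**Figure D2:**
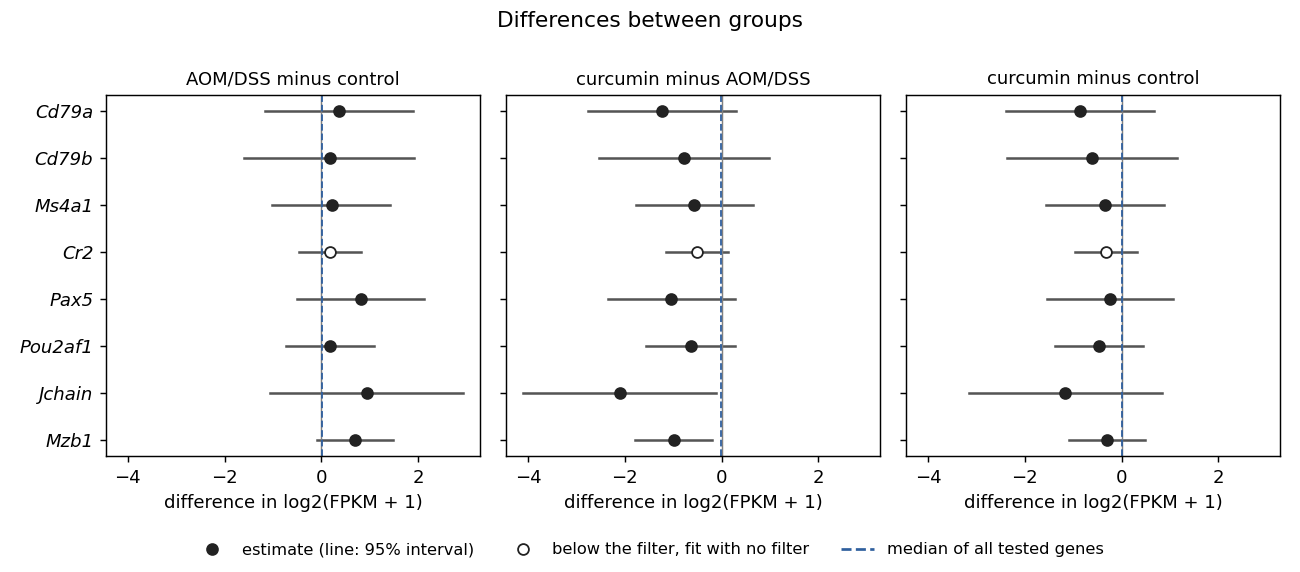
Differences in log2(FPKM + 1) between groups for 8 genes (Tnfrsf17 left out); points are limma estimates, lines 95% intervals before adjustment, the open point Cr2, which was under the filter on low values, and the dashed line the median of all tested genes. Most intervals include 0, and those of Jchain and Mzb1 in curcumin minus AOM/DSS, at -2.1 and -0.99, do not.

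Libraries of one group lay far apart for these genes, above all in AOM/DSS. The SD of log2(FPKM + 1) over 4 libraries, taken as the median of the 7 tested members, was 0.62 in curcumin, 1.66 in AOM/DSS and 0.37 in control. Over all tested genes the median SD was 0.20 in curcumin, 0.23 in AOM/DSS and 0.23 in control, so the members' median stood at the 97.3, 99.7 and 79.8 percentile of tested genes in these groups. In AOM/DSS the SD was 1.93 for Cd79a, 2.13 for Cd79b and 1.66 for Pax5. Control libraries were closer together, with 0.37 for Cd79a, 0.65 for Cd79b and 0.33 for Pax5. Jchain varied widely in every group, with an SD of 1.37 in curcumin, 1.70 in AOM/DSS and 1.59 in control. Whether the spread differs between groups was not tested.

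**Figure D3:**
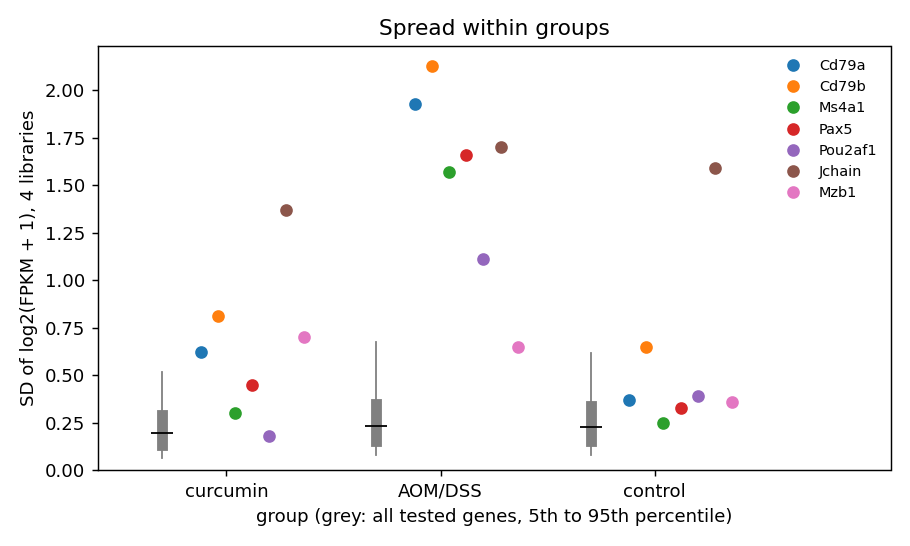
SD of log2(FPKM + 1) over the 4 libraries of each group for the 7 tested members (coloured points); grey bars span the 5th to 95th and the 25th to 75th percentile of all tested genes, with the median as a black dash. In AOM/DSS all members but Mzb1 lie above 1, and Jchain lies above 1 in every group.

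AOM/DSS 2 was the highest of the 12 libraries for 7 of the 9 members, while it was highest for 8.99% of all tested genes. The same library was highest for 22 of 25 other B cell genes. AOM/DSS 3 was the lowest library for 11 of those 25 and curcumin 3 for 6, against 8.6% and 2.98% of all tested genes. Fcmr, the receptor for IgM, was at 1.65, 1.24, 1.08 and 0.404 FPKM in curcumin, at 1.03, 5.10, 12 and 0.0449 FPKM in AOM/DSS, and at 2.09, 4.36, 2.41 and 1.35 FPKM in control. Fcmr was high in AOM/DSS 1 and 2 and lowest in AOM/DSS 3, as were Cd79a and Cd79b. Cxcr5, the receptor that guides B cells into follicles, reached 4.2 FPKM in AOM/DSS 2 and 0.333 FPKM in AOM/DSS 3.

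Across the 12 libraries, Cd79a, Cd79b, Ms4a1, Cr2, Pax5 and Pou2af1 were high and low in the same libraries. Over their 15 pairs Pearson's r of log2(FPKM + 1) was between 0.894 and 0.967 and Spearman's rho between 0.713 and 0.972. Leaving out the 2 libraries farthest from the median of the first gene of each pair gave r between 0.515 and 0.94. These are descriptions over 12 libraries in 3 groups, and the points share depth and base composition within a library. Jchain did not follow the 6: its r with each was between -0.082 and 0.045, and between -0.132 and 0.316 without the 2 farthest libraries. Without AOM/DSS 3 it was higher with each, between 0.246 and 0.397. Mzb1 stood between them, with r of 0.65 with Jchain and 0.657 with Cd79a. Its r with Cd79a was 0.908 without AOM/DSS 3, but 0.256 without AOM/DSS 1 and 2, the 2 farthest libraries of that pair. Its r with Jchain was 0.609 without AOM/DSS 3 and 0.628 without the 2 farthest libraries of that pair, curcumin 1 and AOM/DSS 3.

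The level of Jchain relative to Cd79a, as a ratio of FPKM, was 1.98, 0.0647, 0.715 and 0.379 in curcumin libraries 0 to 3. In AOM/DSS libraries 0 to 3 it was 3.18, 0.135, 0.231 and 61.8, and in control libraries 0 to 3 it was 1.67, 0.47, 2.99 and 0.113. The ratio was thus above 1 in replicate 0 of every group, in control 2 and in AOM/DSS 3, and the groups overlapped.

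**Figure D4:**
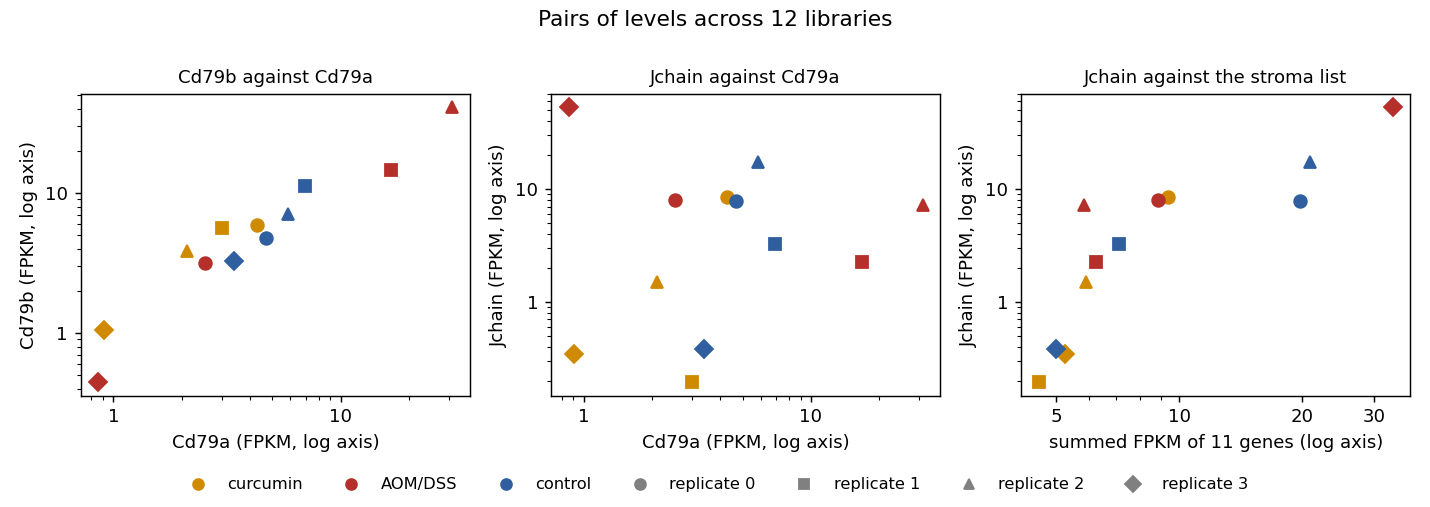
Levels in the 12 libraries on log axes in FPKM: Cd79b against Cd79a, Jchain against Cd79a, and Jchain against the summed FPKM of 11 stroma and vessel genes; colours give the group and shapes the replicate. Cd79b follows Cd79a, Jchain does not, and AOM/DSS 3 has both the highest Jchain level (53.0 FPKM) and the highest stroma sum (33.3 FPKM).

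The genes most like the B cell members were other B cell and antigen presentation genes. The profile was the mean of the standardised log2(FPKM + 1) of Cd79a, Cd79b, Ms4a1 and Pax5, and likeness was Pearson's r with it over 12 libraries. Napsa had the highest r, 0.98, then H2-Ob (0.978), Fcmr (0.975), Cd37 (0.974), Cd22 (0.964), Fcrla (0.962), Fcer2a (0.957) and H2-Oa (0.952). H2-Ob and H2-Oa form a brake on peptide loading of MHC class II, Cd22 damps antigen receptor signals, and Fcer2a is a low-affinity IgE receptor. Without AOM/DSS 2 the r of these 8 stayed between 0.899 and 0.966.

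A second profile was the mean of Jchain, Mzb1 and Pou2af1, which is a mixture, since the r of Jchain with Pou2af1 was 0.013. With this mean, r was 0.962 for Fxyd5, 0.936 for Tyrobp, an adaptor of myeloid and NK receptors, 0.933 for Srgn, the proteoglycan of leukocyte granules, 0.927 for H2-Eb1, and 0.909 for Lyz2, the lysozyme of macrophages. Emp3, Rgs10 and Ly6d followed at 0.907, 0.899 and 0.897. Jchain by itself, a profile added after values were seen, was most like Adamdec1 (r = 0.958, and 0.93 without AOM/DSS 3), then Col3a1 (0.936), Bgn (0.927), Dcn (0.921) and Vim (0.908). Col3a1, Bgn and Dcn are matrix genes of fibroblasts, and Adamdec1 is a metalloprotease of the gut lamina propria. Adamdec1 was at 1.86, 0.127, 0.977 and 0.025 FPKM in curcumin, at 3.00, 0.573, 1.45 and 15.5 FPKM in AOM/DSS, and at 5.04, 1.14, 5.65 and 0.1 FPKM in control, so it was highest in AOM/DSS 3, as Jchain was.

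**Figure D5:**
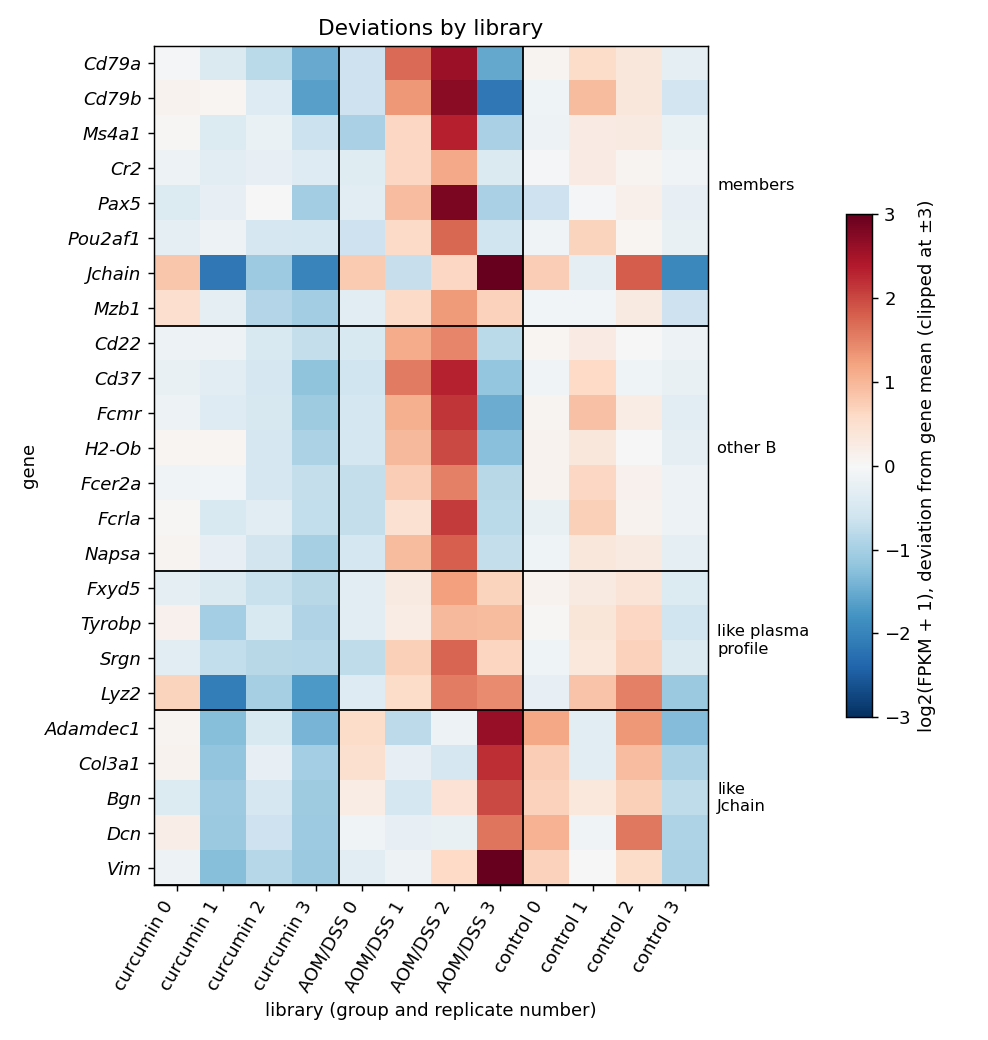
Deviation of log2(FPKM + 1) from each gene's mean over 12 libraries (colour, clipped at ±3) for 8 members (Tnfrsf17 left out) and for genes most like them, with libraries in columns by group. The B cell genes are high in AOM/DSS 1 and 2 and low in AOM/DSS 3, while Jchain and the genes most like it are highest in AOM/DSS 3.

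Scrapings can also hold stroma, blood and other immune cells, whose marker lists were summed in each library. The 11 stroma and vessel genes summed to 9.37, 4.53, 5.91 and 5.24 FPKM in curcumin, to 8.85, 6.25, 5.85 and 33.3 FPKM in AOM/DSS, and to 19.7, 7.11, 20.9 and 5 FPKM in control. The highest sums were in AOM/DSS 3 and control 2, the same libraries in which Jchain was highest and second highest. The 11 macrophage and dendritic cell genes summed to 32.5, 5.76, 10.4 and 11.3 FPKM in curcumin, to 19.8, 30.9, 60.1 and 65.6 FPKM in AOM/DSS, and to 22.0, 35.1, 52.1 and 10.5 FPKM in control. The 12 T and NK cell genes summed to 5.42 to 8.50 FPKM in curcumin, to 6.66 to 23.8 FPKM in AOM/DSS and to 7.58 to 10.3 FPKM in control, with the highest sum in AOM/DSS 2. Red blood cell genes, 8 in number, summed to 38.8 to 56.0 FPKM in curcumin, to 23.0 to 463.8 FPKM in AOM/DSS and to 85.9 to 473.6 FPKM in control, and 5 neutrophil genes to at most 12.7 FPKM. None of these listed genes was at 0 in all libraries, 0 of those tested passed limma's test in any comparison, and their part in the member levels was not tested.

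The wider B cell programme was taken from a list of 25 genes. Of these 25, 15 passed the filter on low values, and 0 of 15 passed limma's test in any of the 3 comparisons. Their median difference was 0.27 for AOM/DSS minus control (13 of 15 positive), -0.58 for curcumin minus AOM/DSS (14 of 15 negative) and -0.36 for curcumin minus control (14 of 15 negative), against medians near 0 for all tested genes (0.015, -0.005 and 0.014). Of all tested genes, 52.8% were positive in the first comparison, and 50.9% and 47.5% were negative in the other 2. AOM/DSS 2 was the highest library for 22 of the 25, so the 15 genes are not separate observations. Cd24a, the most abundant of the list, averaged 173.4 ± 29.9 FPKM in curcumin, 193.3 ± 37.0 FPKM in AOM/DSS and 139.8 ± 28.5 FPKM in control, with a difference of 0.31 for curcumin minus control that is positive where 14 of 15 were negative. Blnk, an adaptor downstream of the antigen receptor, averaged 73.4 ± 10.1 FPKM in curcumin, 67.2 ± 7.63 FPKM in AOM/DSS and 83.9 ± 12.3 FPKM in control. Over the 12 libraries Blnk stayed between 57.6 and 96.7 FPKM, where Cd79a lay between 0.858 and 31.0 FPKM. Cd24a was highest in AOM/DSS 0, at 236.8 FPKM, and Blnk in control 3. Which cells the Cd24a and Blnk levels came from was not tested, so these 2 are not read as B cell results.

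MHC class II genes, which B cells, dendritic cells and macrophages use to present antigen, had 7 tested members and 0 past limma's test in any comparison. Their median difference was 0.83 for AOM/DSS minus control, -1.19 for curcumin minus AOM/DSS and -0.58 for curcumin minus control. Cd74, the invariant chain, was at 72.1, 30.7, 39.5 and 69.8 FPKM in curcumin, at 92.2, 149.4, 307.1 and 109.1 FPKM in AOM/DSS, and at 173.3, 76.1, 62.4 and 37.8 FPKM in control. All 4 AOM/DSS libraries lay above all 4 curcumin libraries for Cd74, with AOM/DSS 2 again the highest, at a difference of -1.54 and a limma adjusted p of 0.144. Between these groups 7.88% of all genes above 0 in any library had no overlap. Control 0 was above every AOM/DSS library but AOM/DSS 2.

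Germinal centre genes, active where B cells mutate their receptors, had 3 tested members of 8 listed, and 0 of 3 passed limma's test in any comparison. Their median difference was -0.09 for AOM/DSS minus control, -0.08 for curcumin minus AOM/DSS and -0.11 for curcumin minus control. Fas, a death receptor, and Rgs13, a regulator of G protein signals, differed by -0.08 and -0.11 between curcumin and control. Rgs13 was highest in control 1, at 15.1 FPKM. It was at 9.08 FPKM in AOM/DSS 3, where Cd79a was at 0.858 FPKM. Bcl6, the factor of the germinal centre, averaged 2.91 ± 0.16 FPKM in curcumin, 4.38 ± 0.623 FPKM in AOM/DSS and 5.12 ± 1.38 FPKM in control (SD, n = 4 each), and its difference of -0.62 between curcumin and control had a limma adjusted p of 0.137. Of 16 other plasma cell genes 10 were tested, and 0 of 10 passed in any comparison, with a median difference of 0.24 for AOM/DSS minus control, -0.06 for curcumin minus AOM/DSS and 0.09 for curcumin minus control. Sdc1 and Xbp1, a surface proteoglycan and a secretory factor of plasma cells that epithelium also expresses, were at 80.9 to 141.0 and 69.9 to 107.7 FPKM over the 12 libraries. Cd38, a surface enzyme of plasma cells and other leukocytes, averaged 69.1 ± 11.4 FPKM in curcumin, 103.0 ± 21.5 FPKM in AOM/DSS and 143.5 ± 41.1 FPKM in control, a difference of -1.01 between curcumin and control with a limma adjusted p of 0.0942. Fkbp11, a folding enzyme of secretory cells, averaged 15.8 ± 3.94 FPKM in AOM/DSS and 6.91 ± 2.99 FPKM in control, a difference of 1.14 with a limma adjusted p of 0.0506. Fkbp11 was named after its values were seen. In control 3, Cd38 was at 176.9 FPKM and Jchain at 0.383 FPKM. Fkbp11 was at 14.5 FPKM in AOM/DSS 3, where Jchain was highest, and at 19.2 FPKM in AOM/DSS 0. Which cells the Fas, Rgs13, Bcl6, Cd38 and Fkbp11 levels came from was not tested. They are not read as germinal centre or plasma cell results.

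Signals that draw or feed B cells were also measured. Of 12 follicle and survival genes 6 were tested, and 0 of 6 passed in any comparison. Tnfsf13b, the B cell survival factor BAFF, averaged 1.95 ± 0.536 FPKM in curcumin and 4.02 ± 1.26 FPKM in AOM/DSS (SD, n = 4 each), with all 4 curcumin libraries below all 4 AOM/DSS libraries, a difference of -0.75 and a limma adjusted p of 0.0882. Its control level was 2.85 ± 0.51 FPKM, and all 4 curcumin libraries also lay below all 4 control libraries. Tnfsf13, the related plasma cell factor APRIL, averaged 18.7 ± 2.22 FPKM in curcumin, 20.1 ± 3.85 FPKM in AOM/DSS and 15.9 ± 3.1 FPKM in control, and the groups overlapped. Pigr, which carries the IgA polymers held by Jchain across the epithelium, was at 975.2, 873.4, 1011.8 and 934.0 FPKM in curcumin, at 1450.1, 1153.6, 1591.7 and 1023.3 FPKM in AOM/DSS, and at 1169.6, 1289.7, 1039.9 and 1182.3 FPKM in control. Its curcumin libraries lay below all 4 AOM/DSS libraries, at a difference of -0.44 and a limma adjusted p of 0.211. They also lay below all 4 control libraries. Of all genes above 0 in any library, 7.88% had no overlap between curcumin and AOM/DSS and 6.75% between curcumin and control. Ccl28, a chemokine for IgA plasma cells, was listed at 0 in all 12 libraries, as were 5158 of the 24391 gene symbols. Such a value does not by itself show that the RNA was absent.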

How the data were processed

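Messenger RNA was measured in 12 libraries, 4 per group, mapped to groups by the labels. Deposited values are FPKM per gene symbol, made by the authors. Build mm9 and the tools featureCounts 1.5.1, Picard, TopHat2 2.1.1, R 3.4.0, DESeq2 1.14.1 and Bowtie2 2.2.6 are listed, without roles or order, in the submitters' processing notes. Strand setting and annotation are not given in the sources used here.

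The FPKM were whole multiples of a step per gene and library (tolerance 0.001, all 19233 genes above 0), which gave whole reads and the library totals.

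For tests, limma 3.58.1 (R 4.3.3) was run on log2(FPKM + 1) (intensity trend, all 12 libraries, Benjamini-Hochberg adjustment, threshold 0.05), on the 12052 genes with at least 1 FPKM in at least 4 libraries. Cr2 and Tnfrsf17 fell below this filter, which left 7 members. The test was tried on simulated data, with noise set to the median SD of tested genes in control (0.23). The members' median SD was 1.66 in AOM/DSS, so the trial does not cover genes that vary as much as these. The members and gene lists were chosen with earlier results of these data known, so list counts are descriptions. From each list the text names some of the most abundant genes, and for likeness the 8 highest correlations. Cxcr5, Fkbp11 and the genes most like Jchain alone were named after their values were seen. Base composition and exon overlap came from GRCm38 annotation, with GC content for 11968 tested genes (99.3%). Immunoglobulin genes were not analysed here. Alternatives changed the pseudocount, filter, scaling, model, libraries, GC class and replicate block, with limma voom on recovered reads in place of a planned count test.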

Additional observations from a re-analysis of the deposited data

Results flagged for a closer look

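Jchain stood out by single libraries in 2 groups. In the curcumin group, curcumin 0 (8.44 FPKM) was set apart from the other 3 libraries, the gap to the nearest of them being 0.841 of the group's range in FPKM. In the AOM/DSS group, AOM/DSS 3 (53.0 FPKM) was set apart from the other 3, with a gap of 0.886 of that range. Both exceed Dixon's critical value for 4 samples at the 95% level. In all, 26 groups of member values were examined and 2 were flagged, and chance picks out about 1 in 20 groups. That rate assumes normally distributed, independent values, which FPKM of these genes are not known to be. Whether 2 of 26 is more than chance gives was not tested.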

How the results depend on the processing

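Of the members, 0 were called in any comparison under any alternative run, 492 member values in all, with a lowest limma adjusted p of 0.125. The direction was kept by 474 and turned round by 18. For AOM/DSS minus control, Cd79b was -0.08 at a pseudocount of 0.1 and -0.13 with voom, Ms4a1 was -0.15, -0.22 and, in the GC-rich libraries alone, -0.02, and Jchain was -0.70 there. For curcumin minus control in the GC-rich libraries alone, Cd79b was 0.22, Pax5 0.28 and Mzb1 0.19. With 1 library left out, AOM/DSS minus control ranged over -0.32 to 1.05 for Cd79a, -0.63 to 0.99 for Cd79b, -0.49 to 0.62 for Ms4a1 and -0.31 to 0.47 for Pou2af1, and curcumin minus AOM/DSS over -1.59 to 0.02 for Cd79b and -0.96 to 0.14 for Ms4a1. The negative values of the first comparison came without AOM/DSS 2, AOM/DSS 1 or control 3, and the positive ones of the second without AOM/DSS 2.

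Counts over all genes moved more. AOM/DSS minus control called 153 genes, against 82 with a replicate block, 54 in a fit of only these groups, 238 with a GC class covariate, 7 in GC-rich and 4 in AT-rich libraries alone, and 53 to 201 with 1 library left out. Curcumin minus AOM/DSS called 130, against 86, 85, 272, 8, 1 and 48 to 149 in the same order. Curcumin minus control called 17, against 11 at a pseudocount of 0.1, 7 with no filter, 2 with a replicate block, 40 with the covariate, 0 in GC-rich and 0 in AT-rich libraries alone, 27 with voom, and 4 to 35 with 1 library left out. Some of these fits used fewer libraries, and the cause of the shifts was not tested. Correlations of deviations between libraries with the same number lay between -0.333 and 0.456, and between 0.0362 and 0.357 for the 4 pairs of curcumin and AOM/DSS, whose numbers also share a GC class. Not every pair passed 0.1, so the numbers are not taken to pair the samples, and 0 members were called with the replicate block. The GC-rich fit has 1 control, assumed to vary like the other groups. The voom fit was chosen after seeing the data, and a planned edgeR fit was not run, as the deposited values are FPKM. Low read numbers limit Mzb1, Cr2, Pax5 and Tnfrsf17.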
